A study of Mus musculus with 42 samples.

Results

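CD62L-positive CD8 T cells of the spleen were compared between a mouse called KO and a mouse called WT by the T-cell receptor beta (TCRβ) transcripts they carried. All samples labelled as spleen CD8 cells were taken as members, which gave 6 libraries from 3 mice per genotype among the 42 samples of the series. Tables of clonotypes were at hand for 2 of these 6, WT mouse 614 and KO mouse 617, and the other 4 were not analysed here. Each genotype was therefore represented by 1 library, no test of genotype was possible, and no statement can be made on whether a feature of KO mouse 617 held in the other KO mice. Every interval below is an exact Clopper-Pearson 95% interval of 1 library and covers counting error only, not the spread between mice. Intervals on shares of reads take each read as independent. Reads are PCR copies, so these intervals are too narrow for cells or molecules.

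Both mice carried Foxn1Cre, which is active in thymic epithelial cells. They differed in NIK, the NF-κB-inducing kinase: the WT mouse had 1 floxed and 1 intact allele (NIKfl/wt) and the KO mouse had 2 floxed alleles (NIKfl/fl). WT thus denotes a Cre-bearing heterozygous control, and the deletion was aimed at the thymic stroma, not at the T cells that were sequenced. Cells were gated as CD8-positive, CD25-negative and CD62L-positive, sorted into lysis buffer, and their RNA was turned into libraries with the SMARTer Mouse TCR a/b Profiling Kit. The labels state neither the age of the mice nor the number of cells sorted, so fewer cells in the tube and fewer clones in the mouse cannot be told apart. The loss of NIK and the CD8 identity of the cells could not be checked, because the tables list beta-chain rearrangements alone, with 0 α, γ or δ segments in either library.

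A T cell builds its TCRβ chain by joining 1 V, 1 D and 1 J segment. The joint and its flanks form the CDR3, the loop that lies over the peptide in the groove of the MHC molecule. The enzyme TdT adds bases that no segment encodes at the joins, so a CDR3 without such inserted bases can be made again in many cells and many mice, whereas one with several is usually private. The joining of segments takes place in the thymus. Epithelial cells of the medulla there, whose development depends on NIK and the non-canonical NF-κB pathway, later take part in removing self-reactive cells. A clonotype here is a distinct combination of CDR3 bases, V and J, and it is productive when its amino acid sequence holds letters only, with no stop or frame break.

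The WT library held 157688 reads, of which 154014 belonged to 16703 productive clonotypes. The KO library was the deeper one, with 194834 reads, 191321 of them in 2644 productive clonotypes. In a draw of 154014 reads the KO library would hold 2537 clonotypes on average, 0.152 of the WT number, so its lower richness was not a matter of fewer reads. In a draw of 10000 reads the expected numbers were 6303 in WT and 1076 in KO. The 3 KO libraries of other T-cell subsets analysed here had 1724 to 3761 productive clonotypes, and no other WT library was analysed here.

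The KO reads were held by a small set of clones. The CDR3s of the 14 KO clonotypes with most reads are shown because they carried 46.6% of all productive KO reads. Letters in capitals are the bases between the end of the V segment and the start of the J segment. Where a D segment was listed, these are the D segment with any inserted base. Where none was listed, they are assigned to no segment.
KO rank 1, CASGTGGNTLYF, TRBV16 with TRBJ2-4: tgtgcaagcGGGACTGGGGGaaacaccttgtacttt
KO rank 2, TRBV1 with TRBJ1-2: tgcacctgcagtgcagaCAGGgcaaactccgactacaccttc
KO rank 3, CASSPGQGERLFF, TRBV12-2 with TRBJ1-4: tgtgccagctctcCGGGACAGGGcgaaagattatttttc
KO rank 4, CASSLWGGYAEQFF, TRBV12-2 with TRBJ2-1: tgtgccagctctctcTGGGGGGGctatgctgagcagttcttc
KO rank 5, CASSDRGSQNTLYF, TRBV13-3 with TRBJ2-4: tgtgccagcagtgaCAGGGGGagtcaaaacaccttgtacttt
KO rank 6, TRBV19 with TRBJ1-2: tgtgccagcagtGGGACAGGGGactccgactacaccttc
KO rank 7, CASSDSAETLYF, TRBV16 with TRBJ2-3: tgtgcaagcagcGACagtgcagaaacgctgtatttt
KO rank 8, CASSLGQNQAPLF, TRBV15 with TRBJ1-5: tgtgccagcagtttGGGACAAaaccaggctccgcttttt
KO rank 9, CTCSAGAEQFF, TRBV1 with TRBJ2-1: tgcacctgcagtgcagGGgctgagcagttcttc
KO rank 10, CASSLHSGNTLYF, TRBV14 with TRBJ1-3: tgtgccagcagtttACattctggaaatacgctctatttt
KO rank 11, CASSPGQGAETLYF, TRBV12-2 with TRBJ2-3: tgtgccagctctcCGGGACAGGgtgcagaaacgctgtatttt
KO rank 12, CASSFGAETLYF, TRBV3 with TRBJ2-3: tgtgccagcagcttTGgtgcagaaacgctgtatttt
KO rank 13, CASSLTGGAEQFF, TRBV16 with TRBJ2-1: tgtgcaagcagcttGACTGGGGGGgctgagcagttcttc
KO rank 14, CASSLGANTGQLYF, TRBV16 with TRBJ2-2: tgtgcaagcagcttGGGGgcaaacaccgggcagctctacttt

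The 4 complete CDR3s among the 5 leading WT clonotypes are shown for comparison, with the same use of capitals. The remaining leader, second in rank, was a truncated 6-residue sequence assigned to TRBV21 that was present in each of the 5 libraries analysed from the series, with 233 reads in WT and 328 in KO.
WT rank 1, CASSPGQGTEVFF, TRBV5 with TRBJ1-1: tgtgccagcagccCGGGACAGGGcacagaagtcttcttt
WT rank 3, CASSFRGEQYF, TRBV14 with TRBJ2-7: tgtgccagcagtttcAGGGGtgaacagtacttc
WT rank 4, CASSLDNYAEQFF, TRBV12-1 with TRBJ2-1: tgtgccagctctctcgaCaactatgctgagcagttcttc
WT rank 5, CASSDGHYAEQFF, TRBV13-3 with TRBJ2-1: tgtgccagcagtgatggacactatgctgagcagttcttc

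The KO leaders were of varied make-up. They used 8 V and 8 J segments, with TRBV16 in 4 of them and TRBV12-2 in 3, and a TRBJ2 segment in 9. Their CDR3s were 11 to 14 residues long. A D segment was listed for 8 of the 14, and 7 of these 8 had no base that was not assigned to a segment; the exception was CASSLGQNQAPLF with 1 inserted base. The clones without a D segment had 2 to 4 bases between V and J. Of the 14 leaders, 0 had a near copy, a sequence of the same V and J that is 1 base away with at least 10 times fewer reads.

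The leading KO clone, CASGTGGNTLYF, had 14668 reads, or 7.67% (7.55 to 7.79) of productive reads, and 0 reads in the WT library. The TRBV1-TRBJ1-2 clone of rank 2 followed with 13125 reads in KO (6.86%) and 94 reads in WT. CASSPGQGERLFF had 9705 reads in KO (5.07%) and 0 in WT. These 3 clones alone thus outweighed by far the WT leader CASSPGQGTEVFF, which had 1028 reads in WT (0.667%) and 0 in KO.

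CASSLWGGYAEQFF had 6404 KO reads and 26 WT reads. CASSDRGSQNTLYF had 5970 KO reads, the TRBV19-TRBJ1-2 clone of rank 6 had 5512, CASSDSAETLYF 5006, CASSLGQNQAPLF 4962 and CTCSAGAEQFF 4646, and all of these had 0 WT reads. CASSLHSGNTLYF had 4544 KO and 13 WT reads. From rank 4 on the sizes fell in small steps.

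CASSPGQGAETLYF had 4232 KO and 7 WT reads, and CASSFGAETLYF had 4087 KO and 9 WT reads. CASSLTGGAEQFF, with 3211 KO reads, was at 0 in WT by bases, but the same amino acid sequence with the same V and J was present there in another nucleotide form with 21 reads. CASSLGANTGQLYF had 3055 KO reads and 0 WT reads. In all, 5 of the 14 leaders were also found in WT by bases and 6 by amino acids. The 5 found by bases, at KO ranks 2, 4, 10, 11 and 12, had 94, 26, 13, 7 and 9 WT reads.

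**Figure D1:**
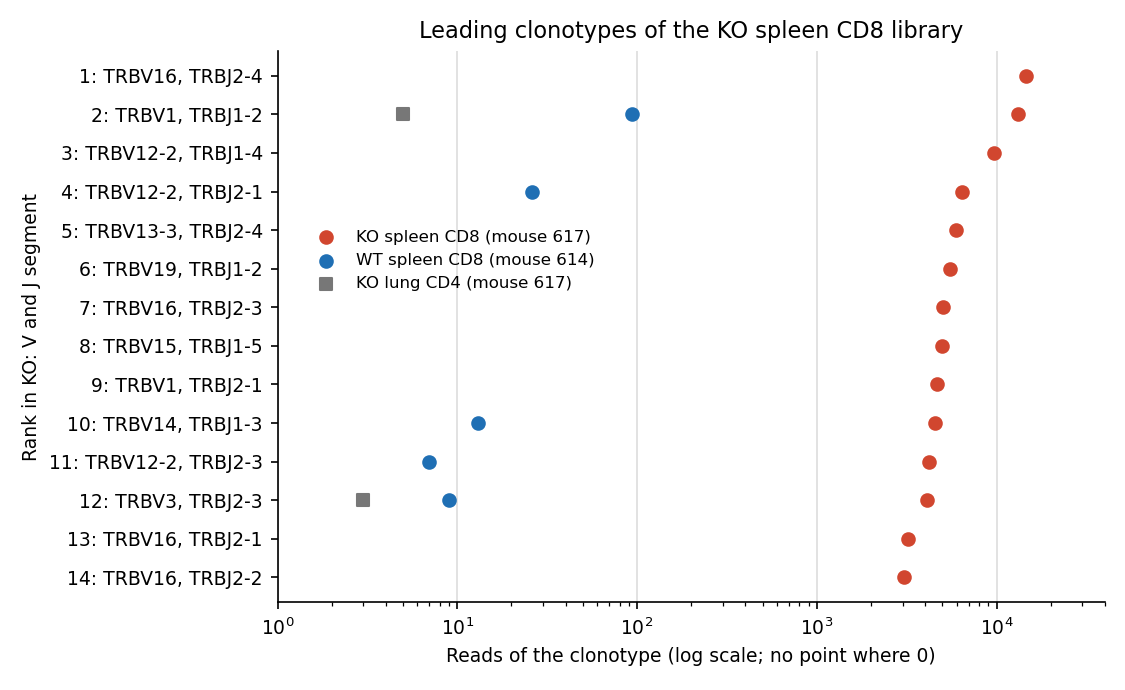
Reads (log scale) of the 14 leading KO spleen CD8 clonotypes, ordered by rank, in the KO spleen CD8 library, the WT spleen CD8 library and the lung CD4 library of the same KO mouse; no point is drawn where a clonotype has 0 reads. The KO points lie between 3055 and 14668 reads, the 5 WT points between 7 and 94, and the 2 lung CD4 points at 3 and 5.

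Some leaders were also present, at a few reads, in CD4 cells of the lung of the same animal. Of the 14, 2 were found in the lung CD4 library of mouse 617, with 5 reads for the TRBV1-TRBJ1-2 clone and 3 for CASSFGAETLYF. Of the 14, 0 were found in the spleen CD4 library of KO mouse 597 or the thymic Treg library of KO mouse 618, which shared 53 (2.005%) and 41 (1.55%) of all KO CD8 clonotypes, and so few leaders allow no reading of the 0. Over all clonotypes, 216 were shared with lung CD4 cells of mouse 617, which is 8.17% of the KO CD8 clonotypes and 6.44% of the lung CD4 ones. The source of the shared clonotypes was not tested.

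The shape of the clone-size distribution shows where the libraries parted. Clonotypes with at least 0.1% of productive reads, called large clones below, numbered 6 in WT with 1.26% (1.20 to 1.32) of reads, and 105 in KO with 79.9% (79.7 to 80.1) of reads. Both sets include the truncated TRBV21 sequence, and 5 WT and 104 KO large clones had a complete CDR3. Of the KO clones, 20 held at least 1% each and together 53.9% of reads, while no WT clone reached 1%. The 3 KO libraries of other subsets had 112 to 202 large clones, which held 18.5% to 58.5% of their reads. The KO CD8 library thus had fewer large clones than each of those 3, and they were larger.

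Most KO clonotypes were small, as in WT. Clonotypes with up to 30 reads made up 85.2% of the KO clonotypes (2253) and 96.5% of the WT ones (16113), but 9.74% of KO reads against 81.8% of WT reads. The median clonotype had 8 reads in KO and 6 in WT, and the mean 72.4 and 9.22. Among the clonotypes below 0.1% of reads, the median was 7 in KO and 6 in WT and the mean 15.2 and 9.11. Clonotypes seen in a single read were 19.3% of KO clonotypes (510) and 16.3% of WT ones (2721).

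The 32 KO clonotypes with over 1000 reads held 62.9% of KO reads, against 1 such WT clonotype with 0.667%. A further 131 KO clonotypes with over 100 and up to 1000 reads held 21.1%, against 18 WT clonotypes with 1.601%. The inverse Simpson index, the number of equally sized clones that would give the same chance of drawing a clone more than once, was 45.0 in KO and 5780 in WT. With the 10 leading clones of each library left out it was 103 in KO and 8192 in WT, so the dominance did not rest on those 10 alone.

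**Figure D2:**
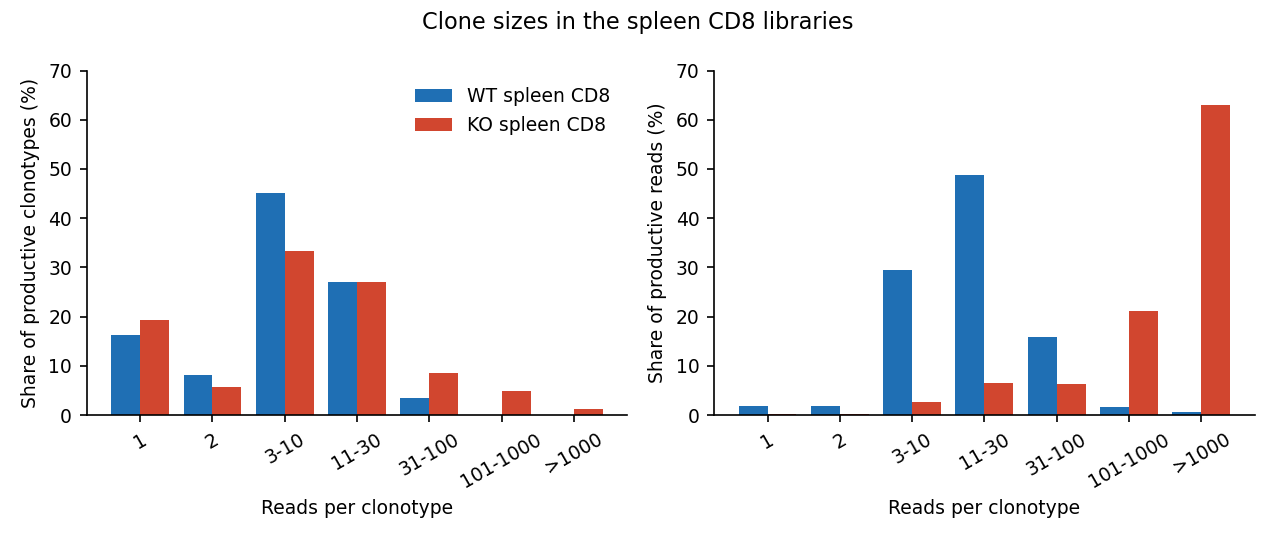
Share of productive clonotypes (left, %) and of productive reads (right, %) in each class of reads per clonotype, for the WT and KO spleen CD8 libraries, 1 library each. The classes from 3 to 30 reads hold most WT reads, while the class over 1000 reads holds 62.9% of KO reads.

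Standard KO CDR3s had fewer inserted bases than the WT ones. Among standard CDR3s, those of 8 to 20 residues that run from the conserved C to the closing F, a D segment was listed for 11297 of 16038 in WT (70.4%) and for 1698 of 2505 in KO (67.8%). In these the mean number of bases at both joins that were assigned to no segment was 1.15 in WT (SD 1.65 over clonotypes) and 0.858 in KO (SD 1.53), a difference of −0.30. No inserted base was found in 51.0% (50.1 to 52.0) of WT and in 61.5% (59.2 to 63.9) of KO clonotypes. Over all productive CDR3s with a D segment, long non-standard sequences included, the order of the means turned, with 4.24 in WT and 5.30 in KO. The share without an inserted base kept its order there, with 48.9% (48.0 to 49.8) in WT and 58.1% (55.8 to 60.3) in KO. An inserted base that happens to match a segment's end counts as encoded, so the values for standard CDR3s may understate what TdT added. The unassigned bases of non-standard sequences, with means of 61.2 in WT and 68.7 in KO, are too many to be read as such additions.

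Both joins contributed. The V-D join was without an inserted base in 65.7% of WT and 73.6% of KO clonotypes, and the D-J join in 73.0% and 80.4%. At least 4 inserted bases were found in 9.13% of WT and 6.12% of KO clonotypes. The part of the D segment that was left had a mean length by clonotype of 8.41 bases in WT and 8.23 in KO. Weighted by reads the order of these lengths turned, with 8.35 in WT and 8.63 in KO.

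The difference was not carried by 1 segment. The mean number of inserted bases was lower in KO for 15 of the 18 TRBV segments compared and for 11 of the 12 TRBJ segments, with differences from −0.62 to 0.07 over TRBV and from −0.46 to 0.13 over TRBJ. Segments of 1 library share its cells, so these counts are not replicates. TRBV26, with 0 standard CDR3s in both libraries, could not be compared.

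From 3 to 100 reads, larger clones more often lacked an inserted base in both libraries. CDR3s without an inserted base made up 50.3% (49.0 to 51.7) of WT and 55.8% (51.7 to 59.9) of KO clonotypes with 3 to 10 reads. At 11 to 30 reads they made up 54.9% (53.1 to 56.6) in WT and 63.8% (59.3 to 68.1) in KO, and at 31 to 100 reads 73.0% in WT and 84.4% in KO. The KO share was the higher one in each of these classes and in those of 1 read (51.2% against 45.8%) and 2 reads (51.7% against 42.7%). Above 100 reads the KO share was 94.8% (87.2 to 98.6) up to 1000 reads and 82.6% (61.2 to 95.05) beyond, while in WT 8 of 8 clonotypes and 1 of 1 lacked an inserted base. Among large KO clones, 61 of 66 with a D segment had no inserted base (92.4%, 83.2 to 97.5), against 60.3% (57.9 to 62.7) of the other KO clonotypes.

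Weighted by reads, CDR3s without an inserted base held 86.4% of the KO reads and 57.6% of the WT reads among those with a D segment. The CD4 cells of KO mice were close to the KO CD8 cells by clonotype, with 60.2% in lung of mouse 617 and 59.6% in spleen of mouse 597, whereas thymic Tregs of KO mouse 618 had 26.5%. Without a WT CD4 library, no genotype comparison could be made for those cells. Out-of-frame and stop-containing clonotypes, which cannot have been selected through their own beta chain, were 7.81% of all clonotypes in WT (1415) and 13.9% in KO (428). A D segment was listed for 861 of the 1415 in WT and for 196 of the 428 in KO. Of these, 43.3% (40.0 to 46.7) in WT and 54.6% (47.3 to 61.7) in KO had no inserted base. Their mean number of inserted bases, however, was 1.62 in WT and 1.77 in KO, in the opposite order to the standard CDR3s. Near copies were sought among productive clonotypes only, so this set was not screened for them.

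**Figure D3:**
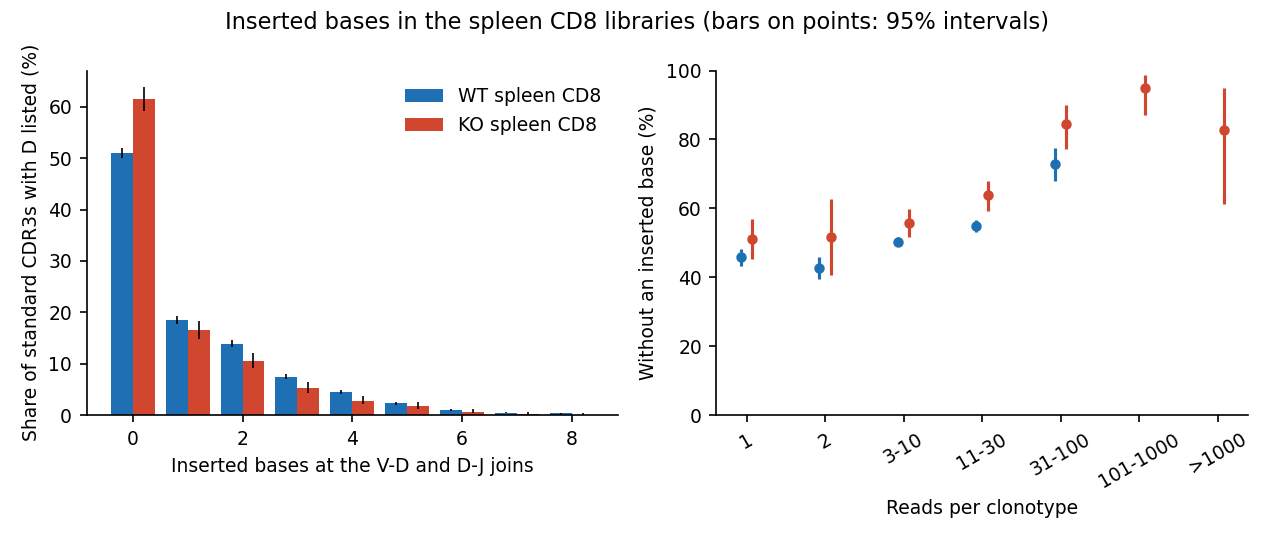
Left, share (%) of standard CDR3s with a listed D segment by their number of inserted bases; right, share (%) without an inserted base by reads per clonotype, in the WT and KO spleen CD8 libraries, with 95% Clopper-Pearson intervals and classes of under 20 clonotypes not drawn. KO lies above WT at 0 inserted bases (61.5% against 51.0%) and in each size class where both are drawn. In WT the share is highest at 31 to 100 reads among the classes drawn (73.0%), and in KO at over 100 and up to 1000 reads (94.8%).

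The clonotypes found in both mice, where a D segment was listed, mostly had no inserted base. The libraries shared 329 clonotypes by bases, V and J, which is 12.4% (11.2 to 13.8) of the KO and 1.97% (1.76 to 2.19) of the WT clonotypes. They held 30.7% of KO reads and 3.95% of WT reads. Of the 170 shared standard CDR3s with a D segment, 165 had no inserted base (97.1%, 93.3 to 99.0), against 57.6% (55.1 to 60.1) of the KO and 50.3% (49.4 to 51.3) of the WT clonotypes that were not shared. Shared CDR3s were shorter, with a mean of 12.8 residues against 13.3 for unshared KO and 13.4 for unshared WT clonotypes.

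From 2 reads to 1000, sharing was more frequent among larger clones of either library. In KO, 5.69% of clonotypes with 1 read, 15.7% of those with 11 to 30 reads and 31.3% of those with over 1000 reads were also in WT. In WT, 0.882% of clonotypes with 1 read, 2.44% of those with 11 to 30 reads and 9 of the 18 with over 100 and up to 1000 reads were also in KO. Of the 105 large KO clones 33 were shared, the truncated TRBV21 sequence among them, and 72 were not found in WT. The leading KO clone, with 14668 reads, had 0 WT reads.

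Besides the 5 leaders named above, the shared clones with most KO reads included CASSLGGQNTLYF (TRBV12-2, TRBJ2-4) with 2389 KO and 10 WT reads and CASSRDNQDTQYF (TRBV5, TRBJ2-5) with 2152 KO and 3 WT reads. The clone shown by sequence, of rank 23 in KO, had 1734 KO and 130 WT reads.
KO rank 23, TRBV17 with TRBJ2-1: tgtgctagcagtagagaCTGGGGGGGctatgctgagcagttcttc

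Several nucleotide forms of 1 CDR3 were less frequent in KO. By amino acids, V and J, 7.80% (7.37 to 8.25) of WT standard CDR3s had more than 1 nucleotide form, with up to 6, against 4.13% (3.37 to 5.01) in KO, with up to 4. The number of clonotypes differed between the libraries, and a smaller sample finds fewer second forms, so these shares are not on equal terms.

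Use of V segments differed little when each clonotype was counted once. Of the 19 TRBV segments with at least 1% of clonotypes in either library, 3 (15.8%) passed the threshold on the ratio of KO to WT shares, at most 0.8 or at least its inverse, with 1 higher and 2 lower in KO. The median ratio was 0.997 and the range 0.704 to 1.56. With 1 library per genotype these are descriptions of the libraries.

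TRBV22, on chromosome 6 from 41212075 to 41212534 and a pseudogene in the RefSeq annotation of GRCm38.p6, had 1.26% (1.09 to 1.44) of the clonotypes in WT and 1.97% (1.47 to 2.57) in KO, a ratio of 1.56. Among standard CDR3s its ratio was 1.12, and it held 0.366% of WT and 0.211% of KO reads. TRBV29 (chromosome 6, 41271403 to 41271881) made up 5.05% (4.73 to 5.40) in WT and 3.56% (2.88 to 4.33) in KO, a ratio of 0.704. The same annotation lists TRBV29 as a pseudogene too, yet 835 of its 844 WT and 92 of its 94 KO clonotypes had a standard CDR3. For TRBV22 these were 148 of 210 and 26 of 52. TRBV12-1 (chromosome 6, 41113567 to 41114067) made up 4.56% (4.25 to 4.89) in WT and 3.63% (2.95 to 4.42) in KO, a ratio of 0.796, and held 3.99% of WT but 0.627% of KO reads. Its ratio missed the threshold among standard CDR3s (0.806), at 2 or more reads (0.802), without near copies (0.807) and without large clones (0.830).

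Several TRBV segments encode chains that bind superantigens of endogenous retroviruses, which can remove the T cells bearing them. As a group these made up 52.6% (51.9 to 53.4) of WT and 51.8% (49.9 to 53.7) of KO clonotypes. Of its 10 members, TRBV29 and TRBV12-1 were lower past the threshold, 7 passed it in neither direction and TRBV24 was below 1% in both libraries. Of all 19 TRBV segments compared, these members included, 3 (15.8%) passed it. Both lower calls among the 19 were members of this group. Whether the group differed from the other segments was not tested. The WT and KO shares were 2.22% and 1.97% for TRBV26, and 9.75% and 10.9% for TRBV16, the segment of the leading KO clone. TRBV26 had 0 standard CDR3s among its 371 WT and 52 KO clonotypes, so its shares, also within the group, do not describe standard CDR3s. TRBV12-2 made up 9.18% and 9.91%, TRBV19 6.45% and 7.30%, and TRBV13-3 6.05% and 4.95%. TRBV17 made up 5.36% and 5.33%, TRBV15 3.75% and 3.74%, and TRBV24 0.269% and 0.492%.

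NKT and MAIT cells favour some V segments that conventional T cells use too. Whether any such cells lay within the CD8-positive, CD62L-positive gate was not tested. The NKT-favoured segments TRBV1, TRBV13-2 and TRBV29 together made up 19.5% (18.9 to 20.1) of WT and 18.8% (17.3 to 20.3) of KO clonotypes. The MAIT-favoured segments TRBV13-2, TRBV13-3 and TRBV19 together made up 21.3% (20.7 to 22.0) and 21.2% (19.6 to 22.8). The α chains that define these cells were not among the segments listed.

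Weighted by reads, V use in KO followed the leading clones. TRBV16 held 20.7% of KO and 9.97% of WT reads, and 37.0% of its KO reads came from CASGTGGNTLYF. TRBV1 held 11.7% and 4.98%, and 58.5% of its KO reads came from its clone of rank 2. TRBV12-2, the segment of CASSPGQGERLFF, held 17.3% and 11.1%. TRBV13-1 fell short of its WT share by reads, with 3.09% against 8.93%, although by clonotype it was at 6.66% in KO and 5.80% in WT.

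The 105 large KO clones were spread over 17 TRBV segments, with 15 on TRBV16 (14.3%, 8.22 to 22.5), 14 on TRBV12-2 and 10 on TRBV19. TRBV21 was among the 17 only through the truncated 6-residue sequence, with 0.171% of reads. The interval for TRBV16 holds its 10.8% among the other KO clonotypes. Of the TRBV segments with at least 1% of clonotypes in either library, TRBV12-1, TRBV22 and TRBV26 were used by none of the large clones. They made up 3.78%, 2.05% and 2.05% of the other KO clonotypes, and whether they were rarer among large clones was not tested.

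By clonotype the TRBJ1 cluster had a larger share in the KO library, though not each of its segments did. Of the 12 TRBJ segments, 2 (16.7%) passed the same threshold, both higher in KO, a share close to the 15.8% of TRBV segments. TRBJ1-1 (chromosome 6, 41533864 to 41533911) made up 8.04% (7.63 to 8.46) of WT and 10.6% (9.44 to 11.8) of KO clonotypes, and TRBJ1-3 (41534323 to 41534372) 4.51% (4.20 to 4.84) and 5.98% (5.10 to 6.95), each a ratio of 1.32. The TRBJ1 cluster made up 30.02% (29.3 to 30.7) in WT and 34.2% (32.4 to 36.1) in KO, and the TRBJ2 cluster the rest. Ratios were 1.01 for TRBJ1-2, 1.03 for TRBJ1-4, 1.18 for TRBJ1-5 and 0.832 for TRBJ1-6. Those of TRBJ2 segments ran from 0.816 to 1.10. TRBJ1 lies upstream of the second D segment and normally joins TRBD1 alone. TRBD1 was listed in 52.8% (51.9 to 53.7) of WT and 56.2% (53.8 to 58.6) of KO CDR3s with a D segment.

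By reads the TRBJ1 cluster was also higher in KO, with 23.8% in WT and 30.4% in KO, but single segments changed their order. TRBJ1-1 held 7.07% of WT but 3.49% of KO reads, below WT, although it was above WT by clonotype. TRBJ2-4 held 9.63% and 19.05%, TRBJ1-2 4.63% and 11.2%, and TRBJ2-7, the most used J segment by clonotype in both libraries, 25.9% and 11.9%. TRBJ1-1 was found in 5.71% (2.13 to 12.02) of the large KO clones and in 10.8% of the rest.

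**Figure D4:**
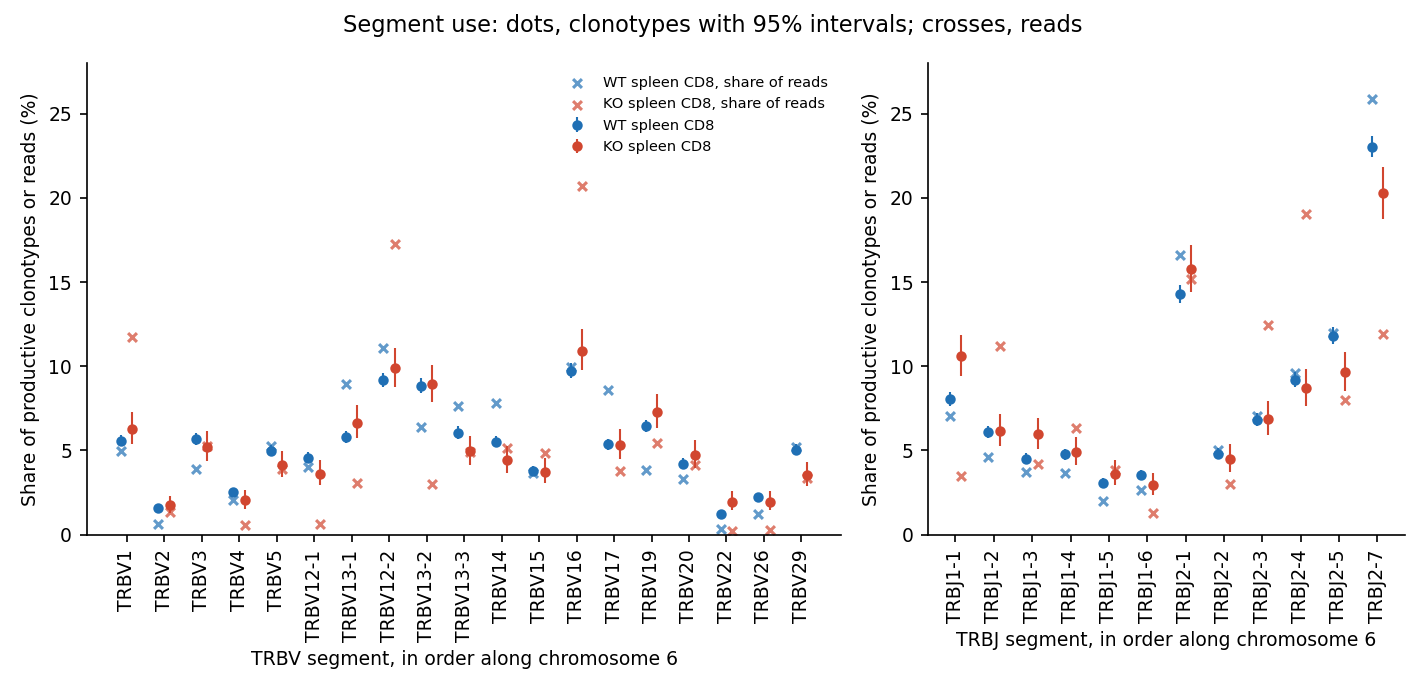
Share (%) of productive clonotypes (dots, with 95% Clopper-Pearson intervals) and of productive reads (crosses) on each TRBV (left) and TRBJ (right) segment in the WT and KO spleen CD8 libraries. The dots of both libraries lie close together for most segments, while the KO crosses for TRBV16 (20.7%), TRBV12-2 (17.3%), TRBV1 (11.7%) and TRBJ2-4 (19.05%) lie well above the KO dots.

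The pairing of V with J was broad in both mice. KO clonotypes used 260 V-J pairs and WT clonotypes 293, of which 252 were common to both. A draw of 2644 WT clonotypes, the KO number, would hold 249.6 pairs on average, so the productive KO clonotypes were not confined to fewer pairs. These counts include non-standard sequences, 5.26% of KO and 3.98% of WT clonotypes. Pairs of standard CDR3s were not counted apart. TRBV16 with TRBJ2-7 was the most frequent pair in both, with 2.28% of WT and 2.23% of KO clonotypes. It was followed in WT by TRBV13-2 with TRBJ2-7 (2.25%; 1.48% in KO), TRBV12-2 with TRBJ2-7 (1.90%; 1.78%), TRBV16 with TRBJ2-1 (1.47%; 1.89%) and TRBV14 with TRBJ2-7 (1.38%; 1.06%). The first 4 of these were also the first 4 in KO, where TRBV12-2 with TRBJ2-4 was the next (1.44%; 1.04% in WT). By reads, TRBV16 with TRBJ2-4 led in KO with 7.89% of reads from 27 clonotypes (1.02%), nearly all of it the leading clone.

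CDR3 length differed by a small amount. Standard CDR3s had a mean of 13.35 residues in WT (SD 1.46 over clonotypes) and 13.25 in KO (SD 1.40), a difference of −0.10. Over all productive CDR3s, with the long non-standard ones, the means were 13.98 and 14.18, in the opposite order. CDR3s of 13 residues made up 24.0% of WT and 28.7% (26.98 to 30.6) of KO clonotypes, and those of 15 residues 14.96% and 11.8%. Those of 14 residues had nearly equal shares, 27.8% and 27.7%. By reads, 13 residues held 25.02% in WT and 37.3% in KO, where the clones of rank 3 and 6 have this length.

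**Figure D5:**
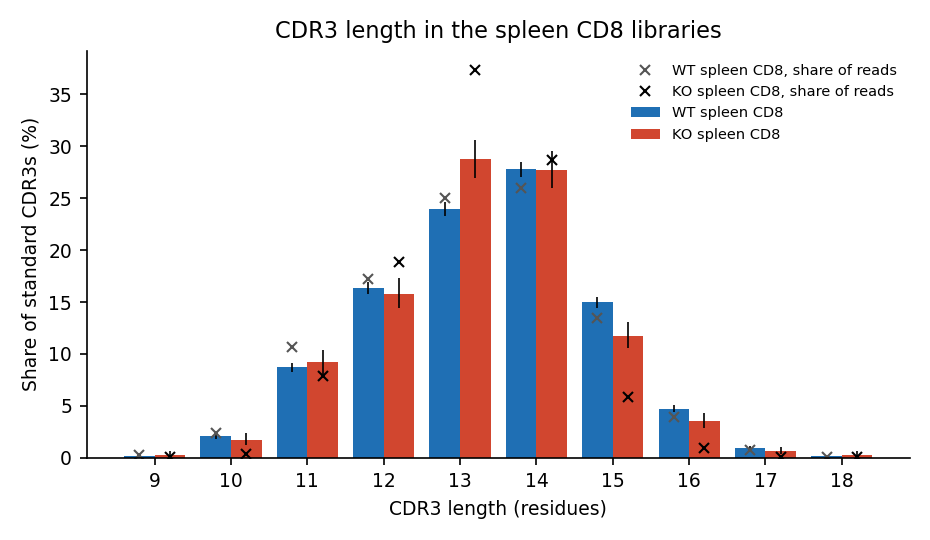
Share (%) of standard CDR3s by length in residues (bars, with 95% Clopper-Pearson intervals) and share of their reads (crosses) in the WT and KO spleen CD8 libraries. The KO bar is above the WT bar at 13 residues (28.7% against 24.0%) and below it at 15 (11.8% against 14.96%).

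The amino acids in the middle of the CDR3, between its first 4 and last 4 residues, were used alike in both libraries. Of 16 residues with at least 1% in either library, 0 (0%) passed the same threshold, and the ratios ran from 0.833 for proline to 1.18 for isoleucine. Glycine, which the D segments encode in all frames, was 24.7% of middle residues in both. Three-residue motifs of the D segments had like shares by clonotype, such as GQG with 4.35% (4.04 to 4.68) in WT and 4.99% (4.17 to 5.92) in KO, GTG with 6.95% and 6.79%, and DWG with 8.32% and 9.10%. By reads GTG held 6.11% in WT and 16.0% in KO, where the clones of rank 1 and 6 carry it.

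Cysteine in the middle and a pair of hydrophobic residues at CDR3 positions 6 and 7 are features that have been linked to self-reactive receptors. A middle cysteine was found in 25 of 16038 WT CDR3s (0.156%, 0.101 to 0.230) and in 12 of 2505 KO CDR3s (0.479%, 0.248 to 0.835). All were small, with at most 14 reads in WT and 10 in KO, and 17 of the 25 WT and 6 of the 12 KO ones were seen in a single read. Of the 12, 0 were found in WT. Among all KO clonotypes with 1, 2 and 3 to 10 reads, 5.69%, 5.30% and 9.90% were, so 12 clonotypes allow no reading of the 0. By reads the order of the shares with a middle cysteine turned, with 0.0462% in WT and 0.01999% in KO.

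A hydrophobic pair at positions 6 and 7 was found in 160 WT CDR3s (0.998%, 0.850 to 1.16) and 13 KO CDR3s (0.519%, 0.277 to 0.886). By reads they held 1.06% in WT and 0.0931% in KO. Their largest clone had 42 reads in WT and 53 in KO. Among the 104 large KO clones with a standard CDR3, 0 had a middle cysteine or a hydrophobic pair, which allows a share of up to 3.48% at the upper end of the interval. The mean net charge of the middle was −0.43 in WT and −0.40 in KO, and a positive middle was found in 10.99% (10.5 to 11.5) of WT and 9.94% (8.80 to 11.2) of KO clonotypes. By reads a positive middle held 10.9% in WT and 4.47% in KO, and 5 of the 104 large KO clones had one.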

How the data were processed

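TCRβ clonotype tables of 2 spleen CD8 libraries, WT mouse 614 and KO mouse 617, were analysed, with 3 KO tables of other subsets for lookup. Per the file headers, each deposited table gives a CDR3's read count, its fraction of the file's reads, its segments and, as other values, the positions of the segment ends. The deposited counts are raw reads, and the deposited fraction is the count divided by the file total, per the file headers and values. The submitters' processing notes name build mm10; the aligner, the caller, error correction and filters were not given in the sources used here. Reads are PCR copies and no molecular identifiers are stated, so clonotypes were counted once and reads given beside them. Intervals (exact Clopper-Pearson, 95%) cover counting error only. Those on shares of the 154014 and 191321 productive reads take PCR copies as independent, so they are too narrow for cells or molecules.

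Values were computed with Python 3.11.15, pandas 2.3.3, numpy 2.4.6 and SciPy 1.17.1. Richness at equal reads was the exact hypergeometric expectation, and the functions were tested on simulated tables. Segments and residues were compared at a share of at least 1% in either library and called past a ratio of 0.8 or its inverse, with no p-values. Named items were the 15 leading KO and 5 leading WT clonotypes, the 10 shared ones with most KO reads, the 5 leading V-J pairs, segments past the ratio, superantigen-binding segments and the TRBJ clusters. Some of these clonotypes are not reported here. Members and lists were chosen with earlier results of these data known. Segment names were matched to RefSeq symbols of GRCm38.p6 for coordinates.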

Additional observations from a re-analysis of the deposited data

How the results depend on the processing

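The ratio of richness stayed between 0.150 and 0.171 over the alternatives run (single reads or near copies left out, standard CDR3s alone, amino acid clonotypes, 10000 reads), the KO share of the 10 leading clones between 38.96% and 39.2%, and the KO clonotypes needed for 50% of reads between 16 and 17. TRBV segments past the ratio went from 3 to 1 among standard CDR3s, to 18 of 18 by reads and to 1 at a ratio of 1.5. There were 4 at 2 or more reads (TRBV2, TRBV13-3, TRBV22, TRBV29) and by amino acids (TRBV4, TRBV12-1, TRBV22, TRBV29), 3 without near copies, with TRBV4 in place of TRBV12-1, and 2 without large clones. TRBJ segments went from 2 to 10 by reads and to 0 at 1.5. Over all productive CDR3s the mean length was 0.199 residues higher in KO and the mean of inserted bases 1.06 higher, both reversed, since long non-standard sequences then enter (5.26% of KO and 3.98% of WT clonotypes). By reads the difference in inserted bases was −0.739. Middle residues past the ratio went from 0 to 1 (cysteine) over all productive CDR3s and to 2 by reads (arginine and tyrosine, lower). Shared clonotypes went from 329 to 534 by amino acids and to 118 at 10 or more reads in both. No paired analysis was possible because the WT and KO libraries came from different mice with no shared number, and with 1 library per genotype none could be left out. Depth limits the rarest clones: single reads held 0.267% of KO and 1.77% of WT productive reads.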
